A study of Homo sapiens with 4 samples.

Results

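The genes described here are grouped as the transcriptional response to SMAD proteins, whose activity was not measured in these samples. They are ID1, ID2, ID3, SMAD6, SMAD7, BAMBI, SKI, SKIL, TGIF1 and PMEPA1, chosen by name as outputs and feedback inhibitors of the BMP and TGF-beta pathways. All 10 were found by symbol among the 19970 genes of the deposited table, and all 10 passed the filter on low counts. COLO205 is an established human line of colorectal adenocarcinoma cells. The cells received nonylphenol (NP), an alkylphenol with estrogenic activity, at 1 µM for 24 h, and control cells received the solvent DMSO for the same time. The cells were detached with trypsin, and bulk RNA of 2 NP samples and 2 control samples, extracted with Trizol, was sequenced. All 4 samples come from this single line and a single dose and time. The sources do not say whether the samples of a group grew in cultures of their own. The p-values therefore measure only how far these 4 samples spread, which may be technical.

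Ligands of the TGF-beta and BMP families bind paired receptor kinases, which phosphorylate receptor-regulated SMADs. These join SMAD4, enter the nucleus and switch on target genes. Among the targets are the ID genes, whose proteins bind helix-loop-helix transcription factors and keep them off DNA, and a set of genes that damp the signal itself. SMAD6 and SMAD7 block the receptors, BAMBI is a receptor-like protein without a kinase, SKI, SKIL and TGIF1 are nuclear corepressors of SMADs, and PMEPA1 keeps receptor-regulated SMADs from the receptor. In the colon, BMP signals are strongest towards the surface epithelium, and many colorectal cancers carry defects in this signalling.

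The promoter sequences of the genes that passed the test below are shown first, as the 250 bases before the annotated start site. Promoter windows were matched by symbol in RefSeq (GRCh38.p14) for 9 of the 10 genes. They were searched on both strands for the SMAD-binding element GTCTAGAC, the CAGA box CAGACA, the GC-rich SMAD site GGCGCC, the E-box CANNTG, the cAMP response element TGACGTCA, the nuclear receptor element AGGTCA and the EGR site GCGTGGGCG. None of these motifs contains another. Capitals mark every match.
ID1 (chr20:31605039-31605288, plus strand): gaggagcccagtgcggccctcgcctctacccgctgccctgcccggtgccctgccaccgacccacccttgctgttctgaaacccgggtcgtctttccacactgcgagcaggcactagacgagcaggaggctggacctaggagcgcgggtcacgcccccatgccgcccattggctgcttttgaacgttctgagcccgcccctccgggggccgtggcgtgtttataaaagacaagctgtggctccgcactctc
ID2 (chr2:8681806-8682055, plus strand): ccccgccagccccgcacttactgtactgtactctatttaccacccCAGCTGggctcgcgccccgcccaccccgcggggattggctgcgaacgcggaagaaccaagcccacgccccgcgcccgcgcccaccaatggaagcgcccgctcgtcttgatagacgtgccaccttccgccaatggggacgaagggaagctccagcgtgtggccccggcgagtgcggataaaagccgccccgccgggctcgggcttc
BAMBI (chr10:28677271-28677520, plus strand): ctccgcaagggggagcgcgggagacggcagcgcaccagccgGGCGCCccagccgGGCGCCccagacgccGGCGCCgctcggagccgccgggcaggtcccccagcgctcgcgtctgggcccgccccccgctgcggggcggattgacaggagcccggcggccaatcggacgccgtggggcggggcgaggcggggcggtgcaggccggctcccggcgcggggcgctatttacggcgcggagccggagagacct
The window of BAMBI held 3 copies of GGCGCC, with their first bases at positions -209, -196 and -181 from the start site. ID2 held an E-box with its first base at position -205. ID1 held none of the 7 motifs in these letters. Of 35116 promoter windows of the same 300 bases (with 50 bases after the start), 19.2% had a GGCGCC and 68.7% an E-box. The SMAD-binding element was present in 0.202% of all windows. Among these genes it was in SMAD6 alone, and its surroundings are given here because the full palindrome is that rare.
SMAD6 (chr15:66702213-66702242, plus strand, capitals mark the palindrome): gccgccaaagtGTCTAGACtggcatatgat
A match is a description of the letters, and no binding was measured.

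In NP-treated cells ID1 fell, ID2 and BAMBI rose, and the other 7 genes did not pass the test. ID1 was 16.9% lower, ID2 was 25.2% higher and BAMBI was 14.8% higher than in control cells. Read counts were compared by the quasi-likelihood test of edgeR. The p-values of the 12616 genes that could be tested were adjusted together (Benjamini-Hochberg), and a gene passed where its adjusted p was under 0.05. Less RNA per cell and fewer cells that express a gene cannot be told apart in bulk samples. Of all genes tested, 2.35% were higher and 1.7% were lower in NP samples by this rule. With the cutoff of the study's methods (more than 1 on the log2 scale in either direction, p under 0.05 before adjustment) 54 genes passed, and 0 of these 10. Levels are given as CPM, the reads of a gene scaled to library size with TMM factors.

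**Figure D1:**
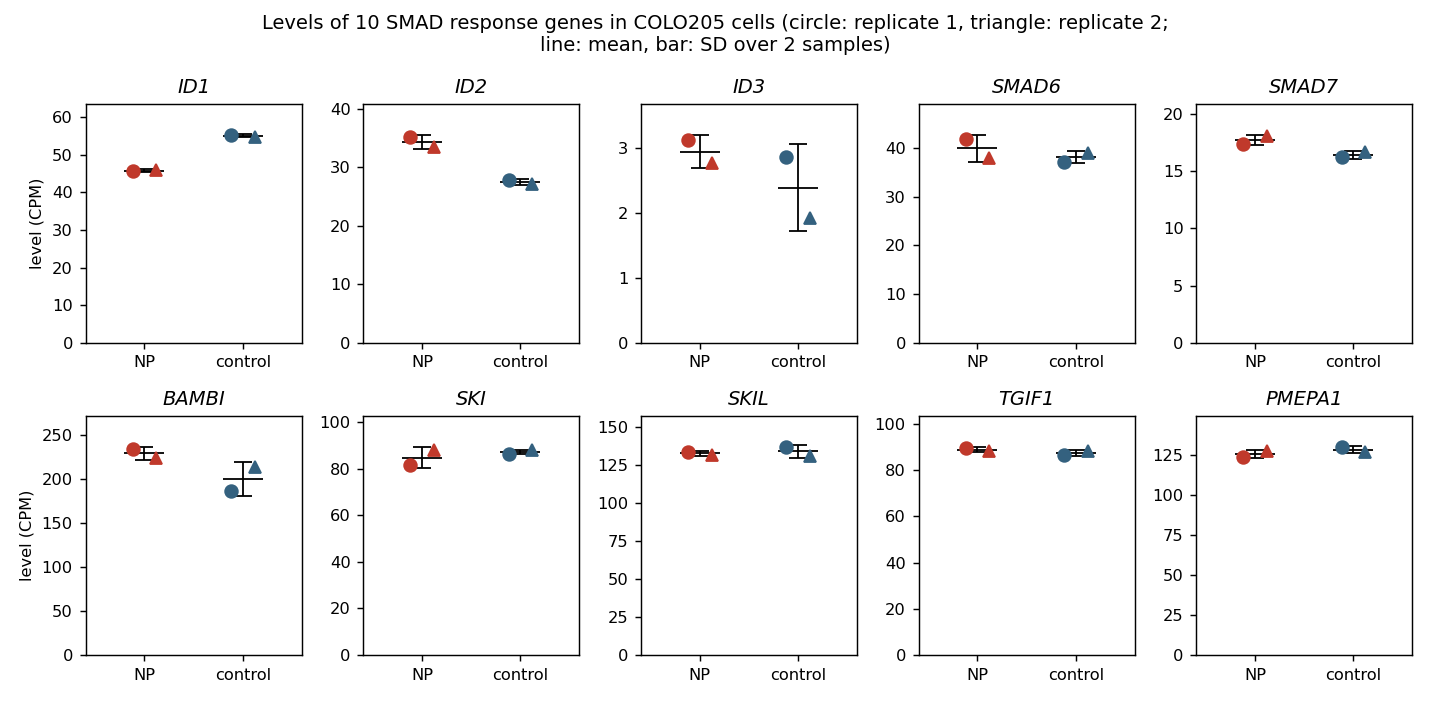
Level in CPM of each gene in the 2 NP samples and the 2 control samples (circles are replicate 1, triangles replicate 2, lines are means and bars are the SD over 2 samples). Both NP samples lie below both control samples for ID1 and above them for ID2, SMAD7 and BAMBI, while the groups overlap for the other 6 genes.

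ID1 encodes a helix-loop-helix protein without a DNA-binding region, and its gene lies on chromosome 20 of GRCh38 from 31605283 to 31606515. It had 772 and 617 reads in the NP samples and 870 and 858 reads in the control samples. Scaled for depth, these were 45.6 and 46.1 CPM in NP samples, against 55.4 and 54.9 CPM in control samples. The replicates of each group lay closer together than the groups did. The mean was 45.9 ± 0.34 CPM in NP samples and 55.2 ± 0.32 CPM in control samples (SD, n = 2 each). The log2 fold change was -0.27 ± 0.068 (standard error), with an edgeR adjusted p of 0.011.

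ID2 is the relative of ID1 on chromosome 2 (from 8678845 to 8684461). It had 596 and 448 reads in the NP samples and 437 and 424 in the control samples. These correspond to 35.2 and 33.5 CPM in NP samples, against 27.8 and 27.1 CPM in control samples, again with no overlap. Means were 34.3 ± 1.23 CPM in NP samples and 27.5 ± 0.48 CPM in control samples (SD, n = 2 each). The log2 fold change was 0.32 ± 0.085 (standard error), with an edgeR adjusted p of 0.013. The antisense gene ID2-AS1 overlaps exons of ID2 in GENCODE release 29, and since it is not given whether reads were counted by strand, reads of the pair cannot be told apart.

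Because ID1 and ID2 moved in opposite directions, their reads were also set against each other within each sample, a measure that no scaling of library size can shift. There were 0.772 and 0.726 reads of ID2 per read of ID1 in the NP samples, against 0.502 and 0.494 in the control samples. The ratio was higher in both NP samples than in both control samples, which follows from the choice of this pair. It restates the differences above and gives them no further support. With 2 samples per group it was left untested.

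ID3, the third ID gene of the list (chromosome 1, from 23557926 to 23559501), was barely expressed. It had 53 and 37 reads in the NP samples and 45 and 30 reads in the control samples. The levels of 3.13 and 2.76 CPM in NP samples overlapped those of 2.86 and 1.92 CPM in control samples. Its log2 fold change of 0.31 had a 95% interval of -0.27 to 0.88 (adjusted p = 0.69 from edgeR), so a change of the size seen in ID1 or ID2 was not detectable at this depth. The log2 fold change of ID3 was 0.62 without control replicate 1 and 0.05 without control replicate 2. ID4, the remaining member of the family, had 0 reads in every sample.

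BAMBI was the most abundant gene of the group (chromosome 10, from 28677510 to 28682932). It had 3958 and 2997 reads in the NP samples and 2920 and 3331 in the control samples. Its levels were 233.8 and 223.9 CPM in NP samples, against 185.9 and 213.2 CPM in control samples, without overlap. The mean was 228.9 ± 7.02 CPM in NP samples and 199.6 ± 19.3 CPM in control samples (SD, n = 2 each). The control samples differed from each other by 0.20 on the log2 scale, as much as the log2 fold change of 0.20 between the groups (± 0.042 standard error, edgeR adjusted p = 0.00098). Without control replicate 1 the log2 fold change was 0.10 and did not pass (adjusted p = 0.37), while without control replicate 2 it was 0.30.

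These 3 calls rest on small differences in 2 samples per group. DESeq2 called none of the 10 genes: BAMBI had an adjusted p of 0.37, and ID1 and ID2 received no adjusted p because its independent filtering set them aside (unadjusted p = 0.0049 and 0.0085 from DESeq2, or adjusted p = 0.23 and 0.33 without that filtering, which was tried once the values were known). Leaving out any 1 of the 4 samples left ID1 short of the test (adjusted p between 0.0501 and 0.12 from edgeR), and of these 4 settings ID2 passed without NP replicate 2 alone.

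**Figure D2:**
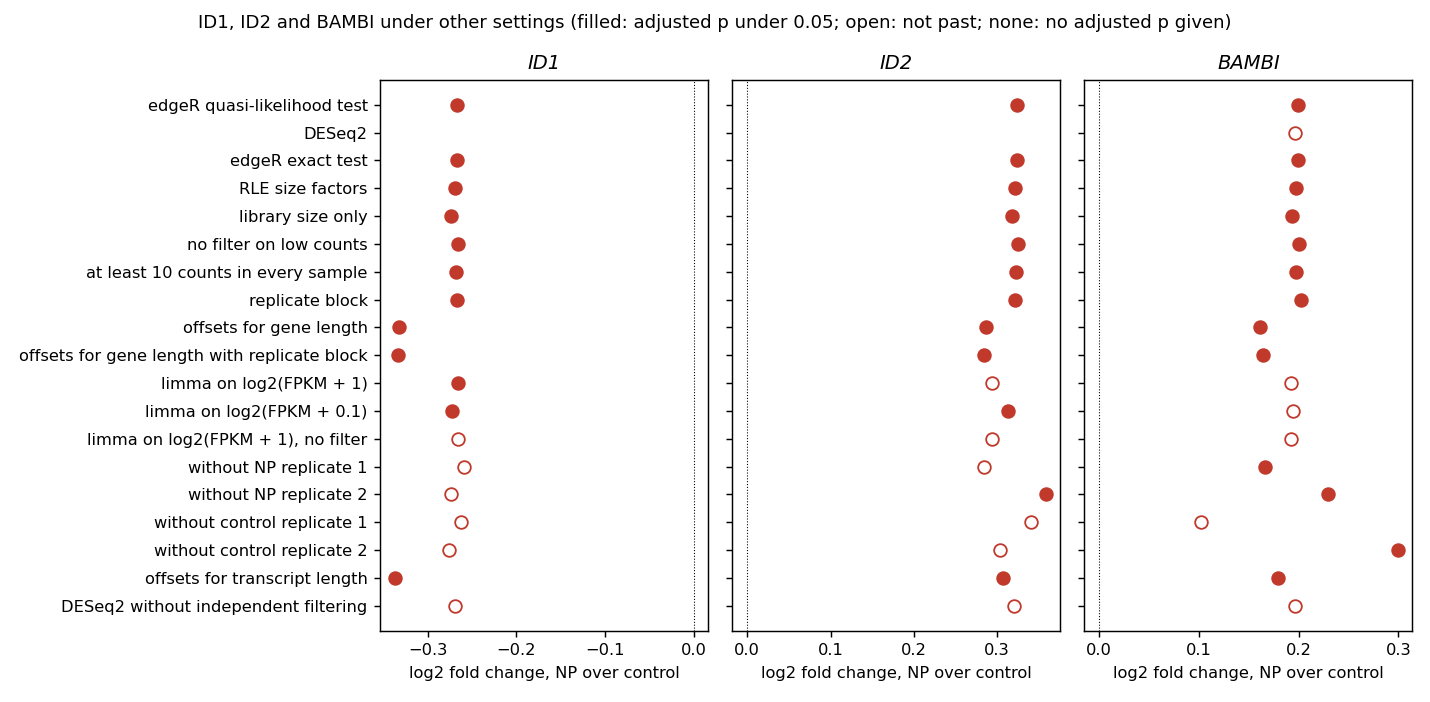
Log2 fold change of ID1, ID2 and BAMBI under the quasi-likelihood test and 18 other settings (filled points have an adjusted p under 0.05, open points do not, and a missing point has no adjusted p). ID1 stays between -0.34 and -0.26 and ID2 between 0.28 and 0.36, while BAMBI moves between 0.10 and 0.30.

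The inhibitory SMADs showed smaller differences. SMAD6, which mainly restrains BMP receptors (chromosome 15, from 66702236 to 66782849), had 710 and 509 reads in the NP samples and 585 and 611 in the control samples. Its levels of 41.9 and 38.0 CPM in NP samples overlapped the 37.2 and 39.1 CPM in control samples. Its log2 fold change was 0.07 (95% interval -0.08 to 0.23, adjusted p = 0.74 from edgeR). SMAD7, which restrains TGF-beta and BMP receptors (chromosome 18, from 48919853 to 48952052), had 295 and 242 reads in the NP samples and 255 and 261 in the control samples. At 17.4 and 18.1 CPM both NP samples lay above the control samples at 16.2 and 16.7 CPM, but the difference did not pass (log2 fold change 0.11, 95% interval -0.12 to 0.33, adjusted p = 0.73 from edgeR).

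The nuclear corepressors and PMEPA1 had intervals that lay closely around 0. SKI (chromosome 1, from 2228319 to 2310213) had 1383 and 1178 reads in NP samples and 1359 and 1374 in control samples. SKIL, its close relative (chromosome 3, from 170357678 to 170396835), had 2269 and 1763 reads in NP samples and 2152 and 2052 in control samples. Their log2 fold changes were -0.04 (95% interval -0.15 to 0.06) and -0.01 (95% interval -0.10 to 0.07). TGIF1, a homeodomain corepressor (chromosome 18, from 3411608 to 3459978), had 1517 and 1179 reads in NP samples and 1357 and 1377 in control samples, a log2 fold change of 0.03 (95% interval -0.08 to 0.13). Some of its reads may match the processed pseudogene TGIF1P1 on chromosome 19. PMEPA1, a membrane-bound inhibitor of TGF-beta signalling (chromosome 20, from 57648392 to 57711536), had 2091 and 1703 reads in NP samples and 2036 and 1976 in control samples, with a log2 fold change of -0.03 (95% interval -0.12 to 0.06). The antisense gene NKILA overlaps its exons, with the same limit on strand as for ID2. In each of these 4 genes the groups overlapped. The adjusted p of these 4 genes was 0.77 to 0.93 (edgeR), and the intervals reach -9.83% (SKI) at the low end and 9.42% (TGIF1) at the high end.

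**Figure D3:**
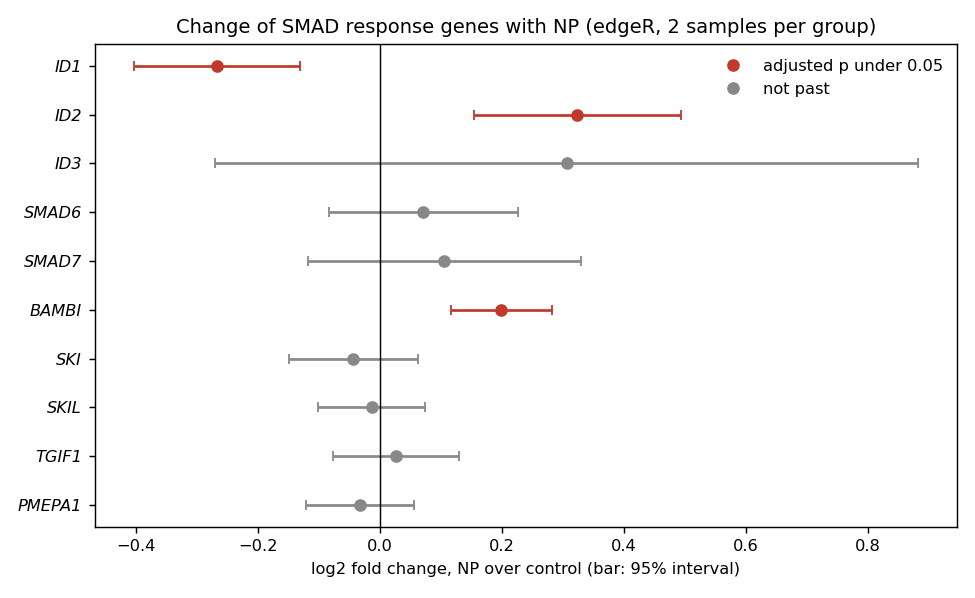
Log2 fold change of NP over control for each gene, with its 95% interval from edgeR's quasi-likelihood test on 2 samples per group. ID1 lies below 0 at -0.27, ID2 and BAMBI lie above 0 at 0.32 and 0.20, and the interval of ID3 is the widest.

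In counts, 2 of the 10 genes were higher, 1 was lower and 7 did not pass, with a median log2 fold change of 0.049 against 0.0015 over all genes tested. In 3 of them both NP samples lay above both control samples, and in 1 both lay below. Over all genes tested these shares were 22.5% and 21.7%.

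Levels between genes were compared per length, on the authors' FPKM values (fragments per kilobase of exon, scaled to the library total). BAMBI was highest, with 108.9 and 104.5 FPKM in NP samples and 87.2 and 99.7 FPKM in control samples. ID1 followed with 36.8 and 37.3 FPKM in NP samples and 45.1 and 44.6 FPKM in control samples. PMEPA1 was at 21.5 to 22.7 FPKM over all samples and SKIL at 16.9 to 17.7 FPKM, so that these 4 genes did not overlap in level. The order of the next pair differed between the groups. ID2 had 15.8 and 15.1 FPKM in NP samples, above SKI at 12.4 and 13.4 FPKM, whereas in control samples it had 12.6 and 12.3 FPKM, below SKI at 13.2 and 13.4 FPKM. TGIF1 averaged 10.9 FPKM in NP samples and 10.8 FPKM in control samples. SMAD6 at 4.37 to 4.88 FPKM, SMAD7 at 3.24 to 3.59 FPKM and ID3 at 1.28 to 2.08 FPKM closed the order, each apart from its neighbour. The FPKM values use the table's full exonic length, which for TGIF1 is 8121 bases against 2076 bases for its principal transcript and for SMAD6 8556 bases against 3835 bases, so the levels and places of both are uncertain.

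**Figure D4:**
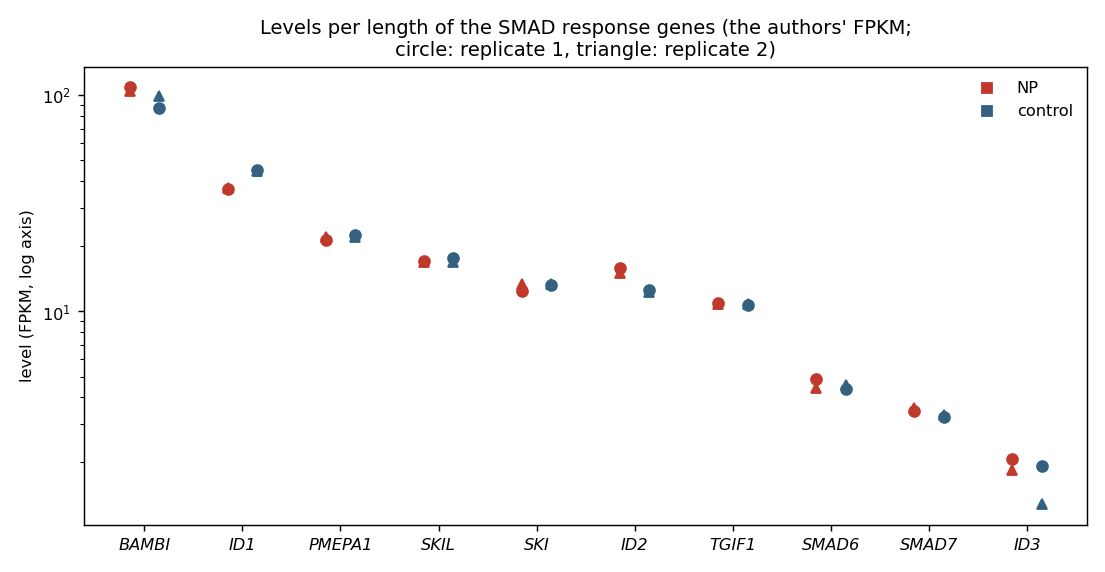
FPKM of the 10 genes in each sample on a log axis, ordered by their control mean (NP left of control; circles are replicate 1, triangles replicate 2). The range runs over the group between ID3 at 1.28 and BAMBI at 108.9 FPKM, and ID2 is above SKI in NP samples only.

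The rest of the pathway was described through 7 gene lists of 121 genes, chosen with earlier results of these data known. Of their 84 tested genes none rose, 6 fell and 78 did not pass in edgeR (median log2 fold change -0.034). Over all genes tested, edgeR called 2.35% higher and 1.7% lower. Before adjustment 3 of the 84 (3.57%) were higher and 13 (15.5%) lower at p under 0.05. The shares over all genes tested were 8.17% higher and 6.97% lower. DESeq2 gave 36 of the 84 an adjusted p and called 0 higher and 4 lower, against 114 higher and 76 lower of 4300 genes with an adjusted p. With limma on log2(FPKM + 1) 0 were higher and 2 lower, against 45 higher and 16 lower of 12616 genes.

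Among 11 tested ligands, 2 fell and 9 did not pass, against 1.7% lower of all genes tested. BMP4, a BMP ligand that acts on the receptors upstream of the ID genes, had 72.2 and 70.2 FPKM in NP samples, against 78.9 and 82.3 FPKM in control samples (log2 fold change -0.17 ± 0.037 standard error, edgeR adjusted p = 0.0016). BMP4 did not pass in 5 of 18 other settings, which were 3 limma settings (adjusted p = 0.069 to 0.28), DESeq2 without independent filtering (0.051) and edgeR without control replicate 2 (0.069). GDF15, a divergent member of the family that is induced by cell stress, had 688.1 and 698.6 FPKM in NP samples, against 810.9 and 824.6 FPKM in control samples (log2 fold change -0.23, adjusted p = 1.8e-10 from edgeR). GDF15 was listed by its family, and whether it acts through SMADs was not tested. In BMP4 and in GDF15 both NP samples lay below both control samples, as they did in 21.7% of all genes tested. Other abundant ligands, named after their values were seen, were INHBB, an activin subunit, at 0.05 on the log2 scale of the difference (edgeR adjusted p = 0.51), and BMP7 at -0.03 (adjusted p = 0.80). TGFB1 was low, with 167 and 116 reads in NP samples and 158 and 172 in control samples.

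None of the 13 tested receptors and co-receptors passed the test, nor did any at an unadjusted p under 0.05 (median log2 fold change 0.045). The smallest p belonged to TGFBR3, the co-receptor betaglycan, with 4.68 and 4.85 FPKM in NP samples and 4.57 and 4.26 FPKM in control samples (log2 fold change 0.11, edgeR adjusted p = 0.53). None of the 8 tested extracellular inhibitors and latency proteins passed either, also before adjustment. DESeq2 and limma on log2(FPKM + 1) called 0 genes of both lists, before adjustment too. DESeq2 gave an adjusted p to only 4 of the 13 and 1 of the 8 genes. Because limma called only 61 of all 12616 genes, its 0 adjusted calls say little about these lists. NBL1, a BMP antagonist, had the smallest p there (log2 fold change 0.14, adjusted p = 0.35 from edgeR), but its log2 fold change was 0.02 without control replicate 1 and 0.26 without control replicate 2. The other 14 genes of that list were too low to test, among them the BMP antagonist NOG with 0 reads in every sample and GREM1 with 1 read in all (both named after their values were seen).

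Of all genes tested 1.7% were lower, and of the 8 receptor-regulated SMADs, SMAD4 and anchors 1 fell and 7 did not pass. This was HGS, an endosomal protein that helps to present SMADs to the receptor, with 13.4 and 14.0 FPKM in NP samples and 15.2 and 15.3 FPKM in control samples (log2 fold change -0.15, edgeR adjusted p = 0.045), a call that 13 of 18 other settings did not give. The transducers themselves did not pass. SMAD4, the shared partner, was low in every sample, with 115 and 69 reads in NP samples and 115 and 93 in control samples, or 0.39 to 0.56 FPKM over the 4 samples. SMAD3, a TGF-beta SMAD, had 13.9 and 12.6 FPKM in NP samples and 11.9 and 12.6 FPKM in control samples (adjusted p = 0.15 from edgeR), and SMAD5, a BMP SMAD, lay between 9.49 and 10.5 FPKM. These 3 SMADs were named after their values were seen.

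Among 22 corepressor partners, phosphatases and ubiquitin ligases of SMADs, 2 fell and 20 did not pass, against 1.7% lower of all genes tested. Before adjustment 7 were lower (31.8%, against 6.97% of all genes tested) and 1 was higher (4.55%, against 8.17%). In DESeq2 and in limma on log2(FPKM + 1) 4 of the 22 were lower and 1 higher before adjustment. Of all 12616 genes, 373 were lower and 421 higher before adjustment in DESeq2, and 742 lower and 908 higher in limma. SIN3A, the scaffold of a histone deacetylase complex, had 5.03 and 4.87 FPKM in NP samples and 5.79 and 5.97 FPKM in control samples (log2 fold change -0.24 ± 0.059 standard error, edgeR adjusted p = 0.0072). SIN3A did not pass in 7 of 18 other settings, among them DESeq2 (adjusted p = 0.075) and leaving out NP replicate 2 or control replicate 2 (adjusted p = 0.085 and 0.091 from edgeR). With 1.7% of all genes tested lower, 1 of 19 tested further target genes of TGF-beta and BMP fell and 18 did not pass. This was JUNB, an AP-1 transcription factor that many signals induce besides TGF-beta, with 54.1 and 55.9 FPKM in NP samples, against 72.1 and 71.0 FPKM in control samples (log2 fold change -0.38 ± 0.046 standard error, edgeR adjusted p = 1.1e-08). Of the helix-loop-helix partners of ID proteins, 3 of 8 could be tested and none passed in edgeR, DESeq2 or limma. TCF3, which encodes some of the E proteins that ID1 and ID2 bind, was the 1 gene of them lower before adjustment in edgeR (log2 fold change -0.14, adjusted p = 0.29), while DESeq2 and limma gave 0 such genes. Its log2 fold change was -0.07 without NP replicate 1 and -0.21 without NP replicate 2.

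**Figure D5:**
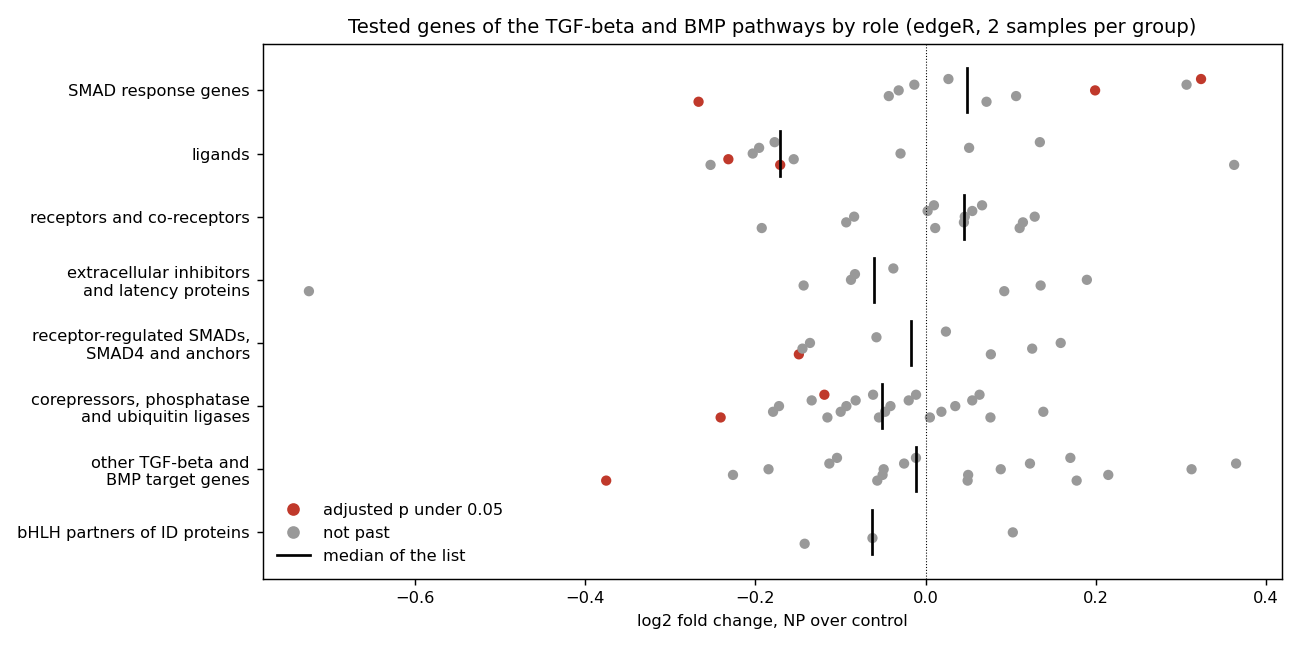
Log2 fold change of NP over control for the 10 SMAD response genes and for the tested genes of 7 pathway lists (red points have an adjusted p under 0.05, black lines are list medians). Outside the SMAD response genes all 6 red points lie below 0, the lowest of them JUNB at -0.38.

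Total counts were 13401691 to 16998129 per sample. Of 12 markers of colon epithelium all were tested and none passed, with a summed level of 7523 to 7605 CPM in NP samples and 7556 to 7561 CPM in control samples, although KRT20, CDX1 and CDX2 were each under 5 CPM. Both NP samples lay above both control samples in EPCAM, KRT20 and LGALS4, an epithelial galectin, and below them in KRT8. The groups overlapped in the other epithelial markers. Over all genes tested 22.5% lay above and 21.7% below. The log2 fold change was 0.07 for LGALS4 and -0.045 for KRT8 (adjusted p = 0.19 and 0.34 from edgeR). The 8 fibroblast markers summed to at most 6.11 CPM in a sample and the 4 endothelial markers to at most 0.236 CPM, with COL1A2, COL3A1, PDGFRA and KDR at 0. The 7 leukocyte markers summed to 349 to 367 CPM in NP samples and 329 to 335 CPM in control samples. Nearly all of this was LYZ, a lysozyme that gut epithelium also makes and that passed the test as higher (log2 fold change 0.11), while PTPRC, CD3E and MS4A1 had 0 reads. The part of LYZ-expressing cells in the results was not tested. Short transcripts were slightly higher with NP. The median difference on the log2 scale was 0.056 for the 2519 genes with transcripts up to 1815 bases and -0.034 for the 2519 genes with transcripts from 5402 bases on. Medians per sample were also taken, relative to the mean of each gene over all samples. For the short transcripts they were 0.034 and 0.027 in NP samples and -0.040 and -0.013 in control samples. For the long transcripts they were -0.014 and -0.019 in NP samples and 0.030 and 0.0040 in control samples. Control replicate 1 thus deviated more than control replicate 2. The principal transcripts of ID1, ID2 and BAMBI have 994, 2041 and 1877 bases. Offsets for transcript length were tried once the values were known, and with them their log2 fold changes were -0.34, 0.31 and 0.18, and all 3 passed (adjusted p = 0.00055, 0.022 and 0.0017 from edgeR).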

How the data were processed

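Each of the 4 samples has raw counts and FPKM in a single table of all genes. The processing notes of the submitters name HISAT2 and HTSeq with build GRCh38, without versions, annotation release or strand setting. The deposited counts are reads per gene, not normalized. The authors' FPKM equal count over gene length and sample total (largest relative difference 5.1e-13%). Gene symbols, positions and the length column of the deposited table were also used.

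The filter on low counts was filterByExpr of edgeR 4.0.16 (R 4.3.3, minimum count 10), and TMM factors were 0.996 to 1.004. NP was tested against control with no other term. Standard errors were taken as the size of the fold change over the square root of F. The replicates differed beyond sampling noise (chi-square per gene of 1.88 for NP and 1.94 for control). Alternatives were DESeq2 1.42.0, limma 3.58.1 on log2(FPKM + 1) or log2(FPKM + 0.1), edgeR's exact test, other scalings and filters, each sample left out, the replicate number as a block, and offsets for gene length. Transcript lengths were those of principal isoforms in GENCODE release 29. The quasi-likelihood test was tested on simulated data.

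Members and gene lists were chosen with earlier results of these data known. Named were the 10 members and, from each list, the genes past the test or otherwise the gene with the smallest p. Others are marked where named. Some genes that this rule names are counted in their lists but not reported here. Coordinates of genes are those of the deposited table, and those of promoters are RefSeq's.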

Additional observations from a re-analysis of the deposited data

How the results depend on the processing

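The number of genes past the adjusted p was 512. It was 190 with DESeq2, 125 with DESeq2 without independent filtering (added after the data were seen), 61 with limma on log2(FPKM + 1), 71 with limma on log2(FPKM + 0.1) and 0 with the first of these limma settings when no filter was applied (931 higher and 831 lower before adjustment). Leaving out 1 sample gave 171 to 387 genes, with 171 without control replicate 1, 224 without NP replicate 1 and 326 without NP replicate 2. Of the 10 SMAD response genes, 3 passed in edgeR. None did with DESeq2 with or without its independent filtering (1 higher and 1 lower before adjustment), 1 did with limma on log2(FPKM + 1), and 0 did in limma without the filter (2 higher and 1 lower before adjustment). Leaving out 1 sample gave 0 to 2.

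ID1, ID2 and BAMBI kept their direction in every setting that gave a value. The sign of 3 genes near 0 turned round: SKIL was at 0.0089 with offsets for gene length, 0.0079 with these and the replicate block and 0.024 with offsets for transcript length. Leaving out 1 sample gave -0.046 to 0.016 for SKIL (positive without control replicate 1), -0.094 to 0.013 for SKI (positive without NP replicate 1) and -0.0056 to 0.14 for SMAD6 (negative without NP replicate 1). None of these passed, and the cause was not tested. With the replicate number as a block 652 genes and the same 3 members passed. The sources tie no 2 samples by number, and deviations of same-numbered samples were not correlated (r = -0.0031 across genes), so the samples were treated as unpaired. Depth limits ID3 most, with at most 53 reads per sample.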
